A study of Mus musculus with 4 samples.

Results

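The promoters described here hold few measured CpG sites. A promoter was taken as 1000 bp upstream to 500 bp downstream of every transcription start site (TSS) of a gene, joined per gene. A site was counted where it had at least 20 reads in all 4 tumors, with the strands of a CpG apart. Values of single tumors are given in the order of replicates 1 and 2, and errors are the SD of the 2 tumors of a line. Autosomal protein-coding genes with 2 to 10 such sites were the members, and there were 2310 of them among 13767 promoters of such genes with any site and 20135 promoters of all genes with any site. A further 11193 had more than 10 sites and 264 had 1 site. The method was reduced representation bisulfite sequencing, which reads the ends of DNA fragments cut at CCGG and tells methylated from unmethylated C at each CpG. The tumors were grown under the skin of the leg in syngeneic female 129Sv/Ev mice aged 12 to 16 weeks. Of these, 2 came from 344SQP, the parental lung adenocarcinoma line, and 2 from 344SQR, its derivative with resistance to anti-PD1. All mice received anti-PD1 (10 mg/kg, 4 doses, the first on day 4), and tumors were taken 24 h after the last dose. No untreated tumor was analysed here. The comparison asks where DNA methylation differs between resistant and parental tumors under the same treatment.

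In mammals most promoters lie in CpG islands, which stay unmethylated in nearly every cell type whether or not the gene is used. Promoters outside islands are poorer in CpG, often belong to tissue-restricted genes, and are commonly methylated in cells that do not express the gene. Tumors often lose methylation over wide CpG-poor regions of the genome.

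The total of CpG calls was 116794455 and 138331886 in parental against 160548303 and 174689402 in resistant tumors. The median coverage of a member's site was 88, 98, 112 and 109 reads in the same order. At the minimum coverage 1 read is worth 5 percentage points. Replicate 2 of the resistant line stood apart: it listed 6377285 sites, against 2770733 and 2695851 for the parental line and 3772295 for the other resistant tumor. It was also the lowest tumor at many of the promoters below, and values without it are given beside many of these. Its part in the results beyond those values was not tested.

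By sequence, most members were poor in CpG. The CpG observed/expected ratio (o/e, the number of CpGs over the number that the C and G content would give) had a median of 0.382 in member windows and 0.659 in promoters with more than 10 sites. The median window held 43 CpGs in members and 90 in the others. An o/e of at least 0.6, a usual bound for CpG islands, was found in 292 members (12.6%), and for these the name CpG-poor does not hold, although few of their CpGs had enough reads. The median member had 6.25% of its CpG strands measured, so each value stands for a small part of a promoter. The sites lay within 50 bp of a CCGG in 99.2% of cases, and the median window held 4 CCGG in members and 11 in the others. The TATA motif TATAAA, searched on the gene's strand from 40 to 20 bp upstream of a TSS, was present in 2.77% of members, 1.23% of promoters with more than 10 sites and 1.28% of all promoters. A site was shared with the promoter of another gene in 405 members (17.5%), so members are not fully independent.

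The members were less methylated in resistant tumors. Mean methylation over the 2310 members was 33.4% and 35.2% in parental against 31.4% and 30.0% in resistant tumors. The means were 34.3% ± 1.25 against 30.7% ± 0.993 SD (n = 2 each). The difference of −3.58 points exceeded the SD of both lines, and both resistant tumors lay under both parental tumors. By exact permutation the two-sided p was 0.333, the smallest p that 2 tumors against 2 allow. The median member differed by −1.07 points, and the range ran from −51.5 to 34.7. Promoters with more than 10 sites had 6.77% and 8.80% in parental against 6.69% and 8.41% in resistant tumors. Their difference of −0.236 points (−1.25 without parental replicate 1, 0.776 without parental replicate 2, 0.625 without resistant replicate 1 and −1.10 without resistant replicate 2) was below the SD of each line and its sign depended on which tumors were in. Members minus these promoters gave 26.6 and 26.4 points in parental against 24.7 and 21.6 in resistant tumors. This is a difference of −3.34 (two-sided exact permutation p = 0.333). The sets started at unlike levels, and differences by level are given below. Without replicate 2 of the resistant line the difference of members beyond these promoters was −1.78. Loss was not particular to these promoters. The 464608 autosomal sites outside promoters had 58.8% and 60.1% in parental against 55.5% and 52.6% in resistant tumors. They differed by −5.38 points, against −2.85 points (−1.77 without parental replicate 2) over the 12452 sites of members. In bulk tumor DNA, a change in the share of cells of a type and a change within the cells of that type cannot be told apart.

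Each promoter was tested by a likelihood ratio per site, combined over its sites by a signed Stouffer z. This called 859 members lower (37.2%) and 195 higher (8.44%) in resistant tumors at FDR under 0.05. Over all 20135 promoters tested, 29.5% were called lower and 9.03% higher. Among the 1054 members called, 258 differed by less than 5 points. Both resistant tumors lay under both parental ones in 750 members (32.5%, against 32.5% of all promoters). Both lay above in 196 (8.48%, against 7.58%). These shares are at or near the background. A difference of at least 20 points without overlap was called lower in 107 members (4.63%, against 2.76% of all promoters) and higher in 9 (0.390%, against 0.219%). Leaving out replicate 2 of the resistant line, 679 members were called lower (29.4%, against 28.6% of all promoters) and 129 higher (5.58%, against 3.96% of all promoters), so the share called lower was near that of all promoters. The large differences then numbered 56 lower (2.42%, against 1.41% of all promoters) and 4 higher (0.173%, against 0.139% of all promoters). Without replicate 1 of that line they numbered 258 lower (11.2%, against 5.94% of all promoters) and 54 higher (2.34%, against 1.76% of all promoters). Without replicate 2 of the parental line there were 168 lower (7.27%, against 3.86% of all promoters) and 47 higher (2.03%, against 1.67% of all promoters), and without its replicate 1 there were 6 higher (0.260%, against 0.204% of all promoters). With 1 tumor left in a line, no overlap is an easier condition. The large differences counted with a tumor left out are thus not on the same terms as those of all 4 tumors. The likelihood ratio test takes no account of how tumors of a line vary. The quasi-likelihood test of edgeR does, and it called 0 members at an adjusted p under 0.05 (0.0745% of all promoters were called). It gave 182 members at an unadjusted p under 0.05 (7.89%, against 8.79% of all promoters tested). This count moved by more than 1.5 times whichever tumor was left out. A per-site F test that uses the variation between tumors called 115 members lower and 11 higher. These are 4.98% and 0.476% of the members, against 8.15% and 1.51% of all promoters, so the members had a smaller share of such calls. The combined z depends on the number of sites, with a median of 5 in members and 26 in all promoters. The part of this in the smaller share was not tested.

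Within the members, level and difference followed the CpG content of the window. The 211 members with an o/e under 0.2 had 64.3% and 63.0% in parental against 57.7% and 48.2% in resistant tumors, which differ by −10.7 points. Both resistant tumors were lower, replicate 2 most. The 1034 members from 0.2 to 0.4 had 46.4% and 48.1% in parental against 43.6% and 40.7% in resistant tumors, a difference of −5.06. From 0.4 to 0.6, 773 members had 16.2% and 19.1% in parental against 15.8% and 17.4% in resistant tumors, where the lines overlapped. The 292 members at 0.6 or more had 10.4% and 12.0% in parental against 10.4% and 12.1% in resistant tumors, a difference of 0.0390 and well within the spread. Without replicate 2 of the resistant line the differences in the same order were −5.88, −3.63, −1.83 and −0.806. The order of the classes was thus the same, with smaller steps between them. Of the 107 members with a large lower value, 97 had an o/e under 0.4 and 0 had an o/e of 0.6 or more. Level limits this count, since a loss of 20 points needs a parental level of at least 20%. A mean under 10% was found in 80.8% of the members at 0.6 or more and in 18.2% of those under 0.4. Among all members 53.9% were under 0.4 and 12.6% at 0.6 or more, against 26.1% and 46.0% of all promoters. The 711 promoters with more than 10 sites and an o/e under 0.4 had 22.8% and 26.1% in parental against 22.2% and 23.5% in resistant tumors. They differed by −1.58 points (−3.22 without parental replicate 1, 0.0598 without parental replicate 2 and −0.914 without resistant replicate 1). The 1245 members under 0.4 had 49.4% and 50.6% in parental against 46.0% and 42.0% in resistant tumors, and differed by −6.01 points. An o/e under 0.2 was found in 211 of these members and in 7 of the 711, so the CpG content of these sets was not alike. The difference between the sets was not tested.

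Members with few sites were more methylated than members with many. The 329 members with 2 sites had 44.7% and 44.4% in parental against 40.6% and 34.8% in resistant tumors, which differ by −6.84 points. The 224 with 10 sites had 18.9% and 21.3% in parental against 18.4% and 19.7% in resistant tumors, a difference of −1.06. With a tumor left out the former ran from −3.97 (resistant replicate 2) to −9.71 (resistant replicate 1). The latter ran from 0.146 (parental replicate 2) to −2.27 (parental replicate 1), by way of −0.395 and −1.72 without resistant replicate 1 or 2. Just outside the rule, the 264 promoters with 1 site had 57.4% and 57.9% in parental against 52.0% and 46.5% in resistant tumors. The 201 with 11 sites had 18.6% and 20.8% in parental against 17.8% and 18.2% in resistant tumors. Along the promoter, the 967 sites from 1000 to 500 bp upstream of the nearest TSS had 50.0% and 50.1% in parental against 46.6% and 42.7% in resistant tumors. The 2847 sites in the last 200 bp before it had 22.3% and 24.3% in parental against 20.9% and 21.0% in resistant tumors. The former differed by −5.41 points (−3.49 without resistant replicate 2) and the latter by −2.41 points (−1.42 without parental replicate 2). In the first 200 bp after the TSS, 4543 sites differed by −2.43 points (−1.29 without parental replicate 2).

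Of the promoters with more than 10 sites, 81.3% had a mean under 10%. The members spread over the whole scale: 957 (41.4%) had a mean under 10%, 418 lay from 20 to 50%, 415 from 50 to 80% and 306 (13.2%) at 80% or more. At or under 10% in every tumor were 858 members, of which 176 had an o/e under 0.4, and 210 were at or over 80% in every tumor. The members from 50 to 80% had 68.2% and 71.9% in parental against 63.5% and 58.4% in resistant tumors, which differ by −9.08 points. Those at 80% or more had 91.2% and 91.7% in parental against 89.2% and 85.4% in resistant tumors, and differed by −4.14 points (−2.21 without resistant replicate 2). Promoters with more than 10 sites differed by −3.42 points at 80% or more, near the members of that level. From 50 to 80% they differed by 2.79 points, below the SD of each line (−6.03 without parental replicate 1 and 11.6 without parental replicate 2). From 20 to 50% they differed by 0.599 points, also below the SD of each line, against −4.82 in members. Under 10% the values were −0.299 and −0.591 points. Loss at members with a large lower value was mostly partial: 90 of the 107 had a parental mean of at least 50%, and 14 reached a resistant mean of at most 20%. In 96 of the 107 the lowest tumor was replicate 2 of the resistant line. It lay at least 10 points under replicate 1 in 77, and the reverse was seen in 3. Sites of a promoter did not always share a level, as the site means spanned at least 50 points in 236 members. Among the 53 promoters with a call under the rule by which genes are named below, 36 had at least 1 site where the lines overlapped or differed the other way.

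The largest lower values among members with at least 4 sites were at genes of different roles. Osr1, a transcription factor of mesoderm and kidney development, had 5 sites at chr12:9574271-9574356, from −170 to −85 bp of its TSS. All 5 also lay in an intron of an annotated Osr1 transcript. They had 37.9% and 45.8% in parental against 2.65% and 5.93% in resistant tumors (41.9% ± 5.59 against 4.29% ± 2.32 SD, FDR = 2.00e-67). The resistant tumors were nearly unmethylated there and lay far below both parental tumors. By edgeR it had a log2 odds ratio −4.17, unadjusted p = 0.000494, adjusted p = 0.153. Sema3b, a secreted semaphorin of axon guidance, had 7 sites at chr9:107604940-107605081, of which 5 lay in coding exons. They had 80.5% and 74.4% in parental against 41.8% and 39.4% in resistant tumors (FDR = 2.20e-54). Its sites were uneven. At 107605071 methylation was 83.3% and 70.9% in parental against 25.0% and 21.5% in resistant tumors, and at 107604989 it was 88.9% and 93.5% against 75.8% and 85.7%. Ptk6, a tyrosine kinase of epithelial cells, had 6 sites at chr2:181202990-181203122, all from −333 to −201 bp of the TSS. They had 62.4% and 69.2% in parental against 34.7% and 33.5% in resistant tumors (FDR = 1.30e-48). The tumors of each line lay close together and all 6 sites were lower in both resistant tumors. Tmprss6, a membrane protease of the liver that controls iron uptake through hepcidin, had 7 sites around 3 TSSs at chr15:78465376-78468927. They had 90.7% and 93.4% in parental against 62.0% and 60.2% in resistant tumors. Rnf212, a factor of meiotic crossing over, had 4 intronic sites at chr5:108774784-108774826 with 56.6% and 75.1% in parental against 32.9% and 27.9% in resistant tumors.

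At some other members replicate 2 of the resistant line lay well under replicate 1. Catsper1, a subunit of the calcium channel of sperm, had 4 sites from −100 to 48 bp of its TSS (chr19:5335641-5335789) with 84.4% and 85.0% in parental against 59.8% and 33.0% in resistant tumors. Without replicate 2 of the resistant line its difference was −24.9 points in place of −38.3, still called. Pla2g5, a secreted phospholipase, had 6 intronic sites at chr4:138812940-138813011 with 89.6% and 84.5% in parental against 64.6% and 37.8% in resistant tumors. It differed by −22.4 in place of −35.9 without the same tumor. Mybpc3, a myosin-binding protein of the heart, had 4 sites at chr2:91118197-91118279 with 90.6% and 92.8% in parental against 67.6% and 49.2% in resistant tumors. Gm7995, a predicted gene, had 4 upstream sites at chr14:42309217-42309247 with 78.4% and 81.1% in parental against 64.6% and 32.2% in resistant tumors. Its difference ran from −15.2 without replicate 2 of the resistant line to −47.6 without replicate 1. Arhgap25 went the other way, with 56.8% and 70.9% in parental against 20.4% and 43.4% in resistant tumors over 5 sites. There the difference of −31.9 was −20.4 without replicate 1 of the resistant line.

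Among members with at least 4 sites, the larger higher values included these genes. Siah3, of the family of Siah ubiquitin ligases, had 7 sites at chr14:75455953-75456301, from −29 to 319 bp of the TSS. They had 19.2% and 20.4% in parental against 41.2% and 45.1% in resistant tumors (19.8% ± 0.833 against 43.2% ± 2.78 SD, FDR = 7.20e-24). Both resistant tumors were above both parental ones and the tumors of a line lay close together. With a minimum of 50 reads 2 sites were left, and the difference was 11.6 in place of 23.4. Lrrtm2, a synaptic adhesion protein, had 5 sites at chr18:35214881-35215072 with 71.0% and 66.5% in parental against 83.4% and 92.8% in resistant tumors. It was the member of this group with the highest parental level. Cthrc1, a secreted protein of wound repair and fibroblasts, had 4 sites at chr15:39077136-39077222 with 21.3% and 28.1% in parental against 39.4% and 47.7% in resistant tumors. Slc7a8, an amino acid transporter, had 7 sites in a noncoding exon at chr14:54781658-54781818 with 6.57% and 13.1% in parental against 23.1% and 32.7% in resistant tumors, on 21 to 37 reads a site. Fam19a2, a chemokine-like protein of the brain, had 4 sites at chr10:123264539-123264548 with 5.75% and 16.3% in parental against 28.1% and 44.2% in resistant tumors. Its difference of 25.1 points was 14.0 over 7 sites with a minimum of 10 reads. Hist3h2ba, which encodes a histone, had 4 coding sites at chr11:58948944-58948971 with 6.03% and 2.59% in parental against 18.8% and 19.1% in resistant tumors. The o/e of its window was 0.722, so the name CpG-poor does not hold for it.

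The remaining higher members rested more on 1 tumor. Clic6, of the family of intracellular chloride channels, had 8 sites at chr16:92498246-92498393 with 13.3% and 18.2% in parental against 35.3% and 65.6% in resistant tumors. Its difference of 34.7 points was 19.5 without replicate 2 of the resistant line. Nrgn, a calmodulin-binding protein of neurons, had 3.03% and 4.66% in parental against 10.3% and 27.0% in resistant tumors over 6 sites at chr9:37552555-37552700. Nrgn differed by 6.43 in place of 14.8 points without that tumor, and by 23.2 without replicate 1. With a minimum of 50 reads 3 of its sites were left and gave 4.44. Hpcal4, a neuronal calcium sensor, had 10.4% and 12.5% in parental against 19.6% and 35.8% in resistant tumors over 4 upstream sites at chr4:123182289-123182359. At 0.623 the o/e of its window was also over the bound for CpG islands. Hpcal4 differed by 8.11 in place of 16.2 points without replicate 2 of the resistant line, by 24.3 without replicate 1, and by 6.84 over 2 sites with a minimum of 50 reads. 6820408C15Rik, an uncharacterised gene, had 23.9% and 43.2% in parental against 43.9% and 77.4% in resistant tumors over 6 sites at chr2:152414594-152414735. These sites lay in a coding exon of the neighbouring gene Zcchc3, and the window's o/e was 0.676. The difference of 27.1 was 10.4 without replicate 2 of the resistant line, 43.9 without replicate 1 and 17.5 without replicate 1 of the parental line.

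The sequence around the measured sites is shown for some of the named promoters whose sites lay clear of exons, so that the spacing of the CpGs that carry the values can be seen. Each is read 5′ to 3′ on the gene's strand from GRCm38, with capitals for the CpGs that had a qualified site on either strand. Promoters lower in resistant tumors were Osr1 (chr12:9574263-9574364, plus strand), Ptk6 (chr2:181202982-181203130, minus strand), Pla2g5 (chr4:138812932-138813019, minus strand) and Prss21, a testis serine protease (chr17:23868444-23868491, plus strand). Hpcal4 (chr4:123182281-123182367, plus strand) was higher.
Osr1: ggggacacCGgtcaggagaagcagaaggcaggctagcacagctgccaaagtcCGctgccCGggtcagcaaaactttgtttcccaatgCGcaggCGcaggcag
Ptk6: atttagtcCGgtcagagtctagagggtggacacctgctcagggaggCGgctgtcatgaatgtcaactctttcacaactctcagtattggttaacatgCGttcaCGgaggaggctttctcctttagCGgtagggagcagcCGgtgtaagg
Pla2g5: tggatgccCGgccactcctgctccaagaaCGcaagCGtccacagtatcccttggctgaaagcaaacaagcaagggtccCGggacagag
Prss21: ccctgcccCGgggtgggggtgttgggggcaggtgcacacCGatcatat
Hpcal4: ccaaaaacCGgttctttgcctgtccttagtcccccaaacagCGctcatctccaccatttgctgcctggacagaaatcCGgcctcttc

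In the Osr1 stretch all 5 CpGs were measured. The site at 9574315 had 51.6% and 52.4% in parental against 0% and 10.3% in resistant tumors on 31, 63, 56 and 29 reads. In the Hpcal4 stretch the site at 123182289 had 12.0% and 8.70% against 35.7% and 58.2%. The site at 123182359 had 17.1% and 23.7% against 16.2% and 19.5%, so the gain was not shared by the last CpG. Both sites of Prss21 moved together: 73.8% and 87.7% against 40.8% and 30.0% at 23868452, and 72.5% and 82.7% against 38.4% and 35.0% at 23868483.

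Several families of tissue-restricted genes had members. Beside each list stand its calls and its median difference. For comparison, 37.2% of all members and 29.5% of all promoters were called lower, and the median difference was −1.07 points over all members and −0.233 over all promoters. Both depended on level. Of members with a mean under 10%, 15.7% were called lower (median −0.258 points). From 50 to 80% the share was 61.9% (median −9.15) and at 80% or more 47.4% (median −3.07). Most lists had a higher mean level than all members, and none was compared at like level. Where leaving out a tumor moved a median or a count of lower calls by 1.5 times or more, the value without it is given in parentheses. No list was tested as a set. Of 1473 genes of odorant, vomeronasal, taste and other chemosensory receptors, 18 were members, with 13 called lower (72.2%) and 1 called higher (0 to 2 with a tumor left out). They had a median of −13.0 points (−8.54 without resistant replicate 2). Their mean level was 63.0% and 62.8% in parental against 55.4% and 45.5% in resistant tumors. Olfr279, an odorant receptor, had 3 coding sites at chr15:98497871-98497910 with 69.3% and 66.5% in parental against 49.5% and 18.7% in resistant tumors. Its difference of −33.8 was −18.4 without replicate 2 of the resistant line. Olfr734, another odorant receptor, had 92.3% and 85.7% in parental against 68.8% and 44.0% in resistant tumors over 2 sites. Olfr734 differed by −20.2 in place of −32.6 without that tumor. Kallikreins, Prss and Tmprss proteases and pancreatic proteases had 17 members, with 11 called lower (64.7%; 7 without resistant replicate 2) and 1 called higher (0 to 2 with a tumor left out). These proteases had a median of −9.08 points (−5.73 without resistant replicate 2). Prss21 had the largest difference of them, 73.1% and 85.2% in parental against 39.6% and 32.5% in resistant tumors (79.2% ± 8.53 against 36.0% ± 5.02 SD, FDR = 3.65e-28). Cela3b, a pancreatic elastase, had 59.0% and 56.8% in parental against 19.2% and 31.4% in resistant tumors over 2 sites upstream of the TSS at chr4:137430725-137430773, on 22 to 36 reads. The sites disagreed. At 137430725 methylation was 68% and 40.9% against 26.9% and 62.9%, where the lines overlapped, and at 137430773 it was 50% and 72.7% against 11.5% and 0%.

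Cytochrome P450 genes of the families Cyp1 to Cyp4, which encode oxidases of drugs and lipids, had 6 members, with 5 called lower (83.3%) and 0 called higher. As a list they had a median of −12.1 points. Their mean level was 43.4% and 42.6% in parental against 32.6% and 25.4% in resistant tumors. Cyp4f14 had 84.1% and 81.9% in parental against 68.0% and 32.7% in resistant tumors over 2 sites. Its difference of −32.7 ran from −15.0 to −50.3 when replicate 2 or replicate 1 of the resistant line was left out. Cyp4f40 had 64.6% and 57.2% in parental against 39.5% and 47.9% in resistant tumors over 3 coding sites at chr17:32659582-32659624, which differed by 5.14, −14.6 and −42.2 points. Keratins and proteins of the cornified envelope of skin had 21 members, with 12 called lower (57.1%; 8 without resistant replicate 2) and 2 called higher (0 to 3 with a tumor left out) and a median of −6.01 points (−9.37 without resistant replicate 1 and −2.38 without resistant replicate 2). Their mean level was 75.6% and 75.8% in parental against 73.7% and 67.3% in resistant tumors. Krt4, a keratin of mucosal epithelium, had 93.3% and 93.5% in parental against 88.4% and 67.5% in resistant tumors. Krt4 differed by −5.02 in place of −15.5 points without replicate 2 and by −25.9 without replicate 1 of the resistant line. Krt73, a keratin of the hair follicle, had 77.6% and 73.7% in parental against 63.2% and 36.9% in resistant tumors. Krt73 differed by −12.5 in place of −25.6 points without replicate 2 of that line and by −38.7 without replicate 1. The 10 members that encode plasma proteins of the liver had 6 called lower (60%; 4 without parental replicate 1 or resistant replicate 2) and 0 called higher (0 to 1 with a tumor left out). They had a median of −7.21 points (−4.17 without parental replicate 1, −12.5 without parental replicate 2, −16.3 without resistant replicate 1 and −2.55 without resistant replicate 2) and a mean level of 74.0% and 67.7% in parental against 67.9% and 56.5% in resistant tumors. F10, a coagulation factor, had 68.3% and 67.4% in parental against 49.1% and 38.5% in resistant tumors over 4 sites at chr8:13037848-13037944. F7, which activates it, had 66.3% and 52.8% in parental against 48.1% and 38.8% in resistant tumors over 6 sites, and it differed by −9.33 in place of −16.1 points without replicate 1 of the parental line.

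Cytokines and chemokines had 22 members, with 11 called lower (50%; 7 without resistant replicate 2) and 1 called higher (0 to 4 with a tumor left out) and a median of −2.94 points (−5.29 without resistant replicate 1). Cxcl2, which attracts neutrophils, had 5 sites from −51 to 91 bp of a TSS (chr5:90903820-90903964). They had 35.6% and 51.0% in parental against 11.5% and 21.1% in resistant tumors (43.3% ± 10.9 against 16.3% ± 6.73 SD, FDR = 2.31e-35). Il13, a cytokine of helper T cells, had 6 sites at chr11:53634402-53634570 with 84.1% and 79.2% in parental against 63.9% and 58.4% in resistant tumors. Both resistant tumors lay under both parental ones at each of these genes, and neither value depended on a single tumor by more than 1.5 times. Cytokine receptors had 17 members, with 9 called lower (52.9%; 5 without resistant replicate 2) and 0 called higher (0 to 1 with a tumor left out). The receptors had a median of −8.01 points (−4.35 without parental replicate 1, −4.49 without parental replicate 2 and −0.760 without resistant replicate 2). Tnfrsf13b, a receptor of B cells, had 89.8% and 90.2% in parental against 81.3% and 68.0% in resistant tumors, with a difference of −8.68 in place of −15.3 without replicate 2 of the resistant line. Il10ra had 4.67% and 26.4% in parental against 4.17% and 0% in resistant tumors over 6 sites at chr9:45269063-45269106. Replicate 2 of the parental line alone stood above the rest. Without it the difference of −13.4 was −2.58 and not called, or −24.3 without replicate 1. With a minimum of 10 reads it was −8.07 over 10 sites.

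Solute carriers, transporters of small molecules, had 50 members, with 18 called lower (36%) and 6 called higher (5 to 9 with a tumor left out), a share called lower near that of all members. The carriers had a median of −2.0 points (−4.69 without parental replicate 1, −0.833 without parental replicate 2 and −3.72 without resistant replicate 1). Slc2a5, the fructose transporter, had 100% and 97.8% in parental against 78.2% and 71.7% in resistant tumors over 2 upstream sites. The site at 150118850 carried this, with a difference of −44.9, and at 150118822 the lines overlapped (−3.03). Slc6a21, of a family of transporters of neurotransmitters and amino acids, had 76.6% and 70.2% in parental against 61.0% and 40.2% in resistant tumors over 10 sites. It differed by −12.4 in place of −22.8 without replicate 2 of the resistant line. Potassium channels had 12 members, with 5 called lower (41.7%; 3 without parental replicate 2) and 2 called higher (2 to 3 with a tumor left out). The channels had a median of −0.888 points (−3.65 without parental replicate 1, 1.53 without parental replicate 2 and −1.47 without resistant replicate 1). Kcnmb1, a channel subunit of smooth muscle, had 56.8% and 53.4% in parental against 53.3% and 27.2% in resistant tumors. Without replicate 2 of the resistant line its difference of −14.8 was −1.83 and not called, and without replicate 1 it was −27.9. The 4 sites with at least 50 reads gave −26.4. Serpins, which inhibit proteases, had 6 members, with 3 called lower (50%; 2 without resistant replicate 2) and 0 called higher (0 to 1 with a tumor left out) and a median of −2.62 points (−4.42 without resistant replicate 1 and −0.684 without resistant replicate 2). Serpinb9c had 71.6% and 69.9% in parental against 62.5% and 40.5% in resistant tumors. Serpinb9c differed by −8.26 or −30.3 in place of −19.3 without replicate 2 or replicate 1 of the resistant line. Zinc finger genes named Zfp, many of them with a KRAB domain, had 88 members. Their level was low, at 14.2% and 15.1% in parental against 13.5% and 13.5% in resistant tumors. There were 19 called lower (21.6%; 10 without parental replicate 2) and 3 called higher (2 to 5 with a tumor left out), with a median of −0.499 points (−0.249 without parental replicate 2). Zfp982 stood far above that level, with 82.5% and 71.8% in parental against 68.7% and 56.6% in resistant tumors over 3 sites. Its difference of −14.5 was −9.20 without replicate 1 of the parental line and −8.48 without replicate 2 of the resistant line. Zfp947 had 14.6% and 26.2% in parental against 6.24% and 9.96% in resistant tumors over 6 sites at chr17:22165830-22165917. Zfp947 differed by −6.50 in place of −12.3 without replicate 2 of the parental line.

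Marker genes of cells that a tumor in the leg could hold were given as levels, since methylation does not count cells. The 22 leukocyte genes among the members had 54.5% and 64.1% in parental against 50.3% and 51.8% in resistant tumors, with 14 called lower (63.6%) and 1 called higher (0 to 4 with a tumor left out). They had a median of −7.47 points (−12.0 without parental replicate 1 and −2.64 without parental replicate 2). Cd22, an inhibitory receptor of B cells, had 83.3% and 84.2% in parental against 68.8% and 45.2% in resistant tumors over 2 intronic sites at chr7:30879634-30879703. It differed by −15.0 in place of −26.8 without replicate 2 of the resistant line. Cd8b1, a chain of the coreceptor of cytotoxic T cells, had 58.3% and 68.0% in parental against 52.4% and 26.3% in resistant tumors. Without that tumor its difference of −23.8 was −10.7 and not called, and without replicate 1 it was −36.9. The 21 skeletal muscle genes had 73.9% and 73.5% in parental against 67.3% and 59.5% in resistant tumors, with 15 called lower (71.4%) and 0 called higher (0 to 3 with a tumor left out) and a median of −7.84 points. Trim63, a ubiquitin ligase of muscle, had 70.7% and 70.8% in parental against 51.7% and 34.4% in resistant tumors over 3 sites at chr4:134314330-134315525. With a minimum of 50 reads 1 site was left, which differed by 1.81 points and was not called. Chrna1, the muscle acetylcholine receptor, had 72.9% and 46.4% in parental against 46.3% and 17.7% in resistant tumors. The lines came close, at 46.4% in the lower parental and 46.3% in the higher resistant tumor. Its difference of −27.6 ran from −13.3 to −41.9 with a resistant tumor left out, and was −14.4 without replicate 1 of the parental line. The part of other cells in these values was not tested.

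The smaller marker lists held few members. The 7 endothelial genes had 49.9% and 55.9% in parental against 49.2% and 41.1% in resistant tumors, with 5 called lower (71.4%; 3 without parental replicate 2 and 2 without resistant replicate 2) and 0 called higher (0 to 1 with a tumor left out). This list had a median of −6.15 points (−11.0 without parental replicate 1, −2.68 without parental replicate 2 and −3.92 without resistant replicate 2). Mmrn2, an endothelial matrix protein, had 48.6% and 50.6% in parental against 43.3% and 31.5% in resistant tumors over 9 sites whose levels spanned 73.3 points. Mmrn2 differed by −6.30 in place of −12.2 without replicate 2 of the resistant line and by −18.5 over 6 sites with a minimum of 50 reads. Erg, a transcription factor of endothelium, had 74.2% and 70.5% in parental against 66.1% and 42.2% in resistant tumors. Without replicate 2 of the resistant line the difference of −18.2 was −6.28 and not called, and without replicate 1 it was −30.1. The 7 fibroblast genes had 29.9% and 33.6% in parental against 30.2% and 33.9% in resistant tumors, with 3 called lower (42.9%; 2 without parental replicate 1 or resistant replicate 1 and 1 without parental replicate 2 or resistant replicate 2) and 1 called higher (1 to 2 with a tumor left out). Their mean difference was 0.328 (−1.50 without parental replicate 1, 2.16 without parental replicate 2, 2.17 without resistant replicate 1 and −1.51 without resistant replicate 2), and they had a median of −2.87 points (0.904 without parental replicate 2). Of these 7 genes 5 were lower and 2 higher. The higher ones include Cthrc1, described above, which differed by 18.9 points. Col1a2, a chain of type I collagen, had 20.8% and 25.7% in parental against 18% and 14.4% in resistant tumors. It was not called without replicate 2 of the parental line (−4.67) or of the resistant line (−5.28). The 5 genes of lung epithelium had 48.8% and 50.9% in parental against 49.8% and 46.9% in resistant tumors, with 2 called lower (40%; 1 without parental replicate 1 or resistant replicate 2) and 1 called higher (1 to 2 with a tumor left out) and a median of −2.37 points (1.12 without parental replicate 1, 1.56 without parental replicate 2, 1.84 without resistant replicate 1 and 0.274 without resistant replicate 2). Cldn18, a tight junction protein of lung and stomach, was higher in resistant tumors, with 91.0% and 92.0% in parental against 96.2% and 96.5% in resistant tumors over 5 sites at chr9:99710182-99710246. In the list 3 genes were lower and 2 higher, and the lowest differed by −9.15 points. Both resistant tumors lay under both parental ones in 0 of the 5.

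A low o/e of the window did not always go with methylation at its measured sites. The o/e counts the whole window, and measured CpGs can lie close together within it. Those of Plscr4 were 7 CpGs at chr9:92457829-92457871. Those of Anapc15 were 7 at chr7:101896437-101896501, of 99 CpGs in its windows. The o/e of the measured stretches was not taken. Among the 176 members with an o/e under 0.4 that stayed at or under 10% in every tumor, the 6 with the most sites are named here. Abcb8, a transporter of the mitochondrial membrane, had 1.15% and 0.667% in parental against 0.691% and 0.784% in resistant tumors over 10 sites at chr5:24394519-24394651. Cep164, a protein of the base of cilia, had 1.46% and 0.834% in parental against 1.25% and 1.36% in resistant tumors. Anapc15, a subunit of the complex that ends mitosis, had 1.81% and 1.36% in parental against 2.06% and 1.21% in resistant tumors. Plscr4, Zfp317 and Zfp808 were likewise between 0.364% and 2.77% in every tumor, and none of these 6 was called. Calls at such levels can rest on small amounts: Thumpd3, with 10 sites on 130 to 231 reads, was called with 1.57% and 1.66% in parental against 1.04% and 1.18% in resistant tumors. This is a difference of −0.502 points (FDR = 0.0112). It was not called without replicate 1 (−0.550) or replicate 2 (−0.454) of the parental line or replicate 1 of the resistant line (−0.433).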

How the data were processed

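Per the paper's methods and the submitters' processing notes, the authors trimmed reads of 50 bases with Trim Galore 0.4.1 and cutadapt 1.9.1, mapped them to mm10 (GRCm38) with Bismark and Bowtie 1.1.2, and called methylation per CpG and strand. They deposited coverage as a count of reads per site and methylation as a percent of those reads, with tumors kept apart and no normalization. Methylated reads were recomputed from both columns. All 1081201 sites with at least 20 reads in every tumor lay at a CpG of the reference, which comes from another mouse strain; sites that differ between strains were not removed.

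Promoters came from GENCODE vM21 basic. The mean percent over a promoter's sites was its level. Sites were compared by likelihood ratio in logistic models without overdispersion, as in methylKit (p not under 2.2e-16), then combined by signed Stouffer z, and p-values were adjusted by Benjamini-Hochberg over all 20135 promoters. edgeR's quasi-likelihood test ran on methylated and unmethylated counts summed per promoter. Means per tumor were compared by two-sided exact permutation tests. Alternatives were coverage minimums of 10 and 50, merged strands, the TSS at the gene's 5′ end, thinned or pooled reads, each tumor left out, an F test, an FDR of 0.01, blocks of the replicate number, and an o/e under 0.6; an o/e under 0.4 and members that share no site were added after seeing the data.

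The named genes were drawn from these, and some of them are not described: among members with at least 4 sites, a call and no overlap of the lines, the 10 lower and 10 higher with the largest difference; of each list, up to 2 called members without overlap and with the largest difference; the 6 members with most sites that were at or under 10% in every tumor at an o/e under 0.4; and the 3 called members of 10 sites closest to no change. The members and lists were chosen with earlier results of these data known. The promoter test and edgeR were also run on simulated reads, and the outcome of these runs is not given here. Python 3.11.15, numpy 2.4.6, scipy 1.17.1, pandas 2.3.3, R 4.3.3 and edgeR 4.0.16 were used.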

Additional observations from a re-analysis of the deposited data

Results flagged for a closer look

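CpG calls on the Y chromosome, which no comparison used, were above 0 in every tumor although the mice were female. For every 1000000 autosomal calls there were 413 and 257 in parental against 563 and 180 in resistant tumors, so replicate 1 was above replicate 2 in both lines and the lines overlapped. The sex of the animal that gave the cell lines was not given in the sources used here, and the part of these calls in the results was not tested.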

How the results depend on the processing

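The mean difference over members stayed below 0 under every alternative run, between −2.69 and −4.46 with a tumor left out, and was −6.01 in the members with an o/e under 0.4. The difference beyond promoters with more than 10 sites ran from −1.78 to −4.90 with a tumor left out. The members called lower numbered 650 to 870 and those called higher 129 to 287 with a tumor left out, and large differences 56 to 258 lower and 4 to 54 higher. Over all promoters the same settings called 21.8% to 30.2% lower and 3.96% to 12.9% higher, against 28.1% to 37.7% and 5.58% to 12.4% of members. With a tumor left out, the condition of no overlap for a large difference was easier to meet. edgeR called 0 members lower and 0 higher, with or without a large difference. The F test gave 115 lower and 11 higher (5.45% of members together, against 9.66% of all promoters). Large differences were called in 36 and 3 members, for which no share of all promoters is given. At an o/e under 0.4, 91 of 1245 members were called higher (7.31%, against 8.44% of all members and 9.03% of all promoters). The other alternatives of coverage, strand, TSS, depth, shared sites and FDR kept each count within 1.5 times. Which property of these settings moved the values was not tested.

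The tumors share replicate numbers, but no source says that tumors of a number share a batch. Deviations from the line means correlated between tumors of the same number with r = 0.611 across the 2310 members (promoters are not replicates). Given the replicate number as a block, edgeR called 208 members lower and 26 higher (10.1% of members together, against 12.1% of all promoters tested). The Mantel-Haenszel test with the block gave 834 and 182 (44.0%, against 37.5%). The difference within replicate 1 was −1.99 and within replicate 2 −5.16 points, with a mean of −3.58 in this paired form. Of the 53 promoters with a call under the naming rule, 35 were called by edgeR with the block and 0 without it. None was called in the opposite direction in the alternatives run for single promoters, but uncalled values changed sign. These were Trim63 (1.81 at a minimum of 50 reads), Cemip (−0.108 without replicate 2 of the resistant line) and Acin1 (0.00508 at a minimum of 10 reads).

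Coverage limits single values: at 20 reads 1 read is worth 5 points.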
